A study of Homo sapiens with 2 samples.

Results

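The genes described here are feedback inhibitors and immediate early genes of the ERK pathway: DUSP1 (Entrez gene 1843), DUSP4 (1846), DUSP5 (1847), DUSP6 (1848), SPRY2 (10253), SPRY4 (81848), EGR1 (1958), EGR3 (1960), IER3 (8870) and PHLDA1 (22822). They were taken by symbol from a table of tag counts, in which 10 of the 10 symbols were found among 13137 genes. The table comes from a study of the stem cell transcription factor SOX2 in lung cancer, and the comparison asks which transcripts differ when a hairpin against SOX2 is expressed. A549, an established human lung adenocarcinoma cell line, was infected with a lentivirus holding a short hairpin RNA (shRNA) under an H1TetO promoter, which doxycycline switches on. The lines were polyclonal puromycin-selected pools. The group shRNA-SOX2 expressed a hairpin against SOX2 and the group shRNA-Con a scrambled one, both were incubated with doxycycline for 4 days, and mRNA was selected with oligo(dT) from 4 µg of total RNA and read as short sequence tags, 1 per captured transcript.

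Each condition has 1 library, so a test of tag counts compares these 2 libraries and not the conditions, and spread between cultures cannot be estimated. The library shRNA-Con holds 2304184 gene tags and the other 2093816. Their columns carry only short codes. The initials of shRNA-Con were seen in SC, and S1, the column left over, was taken for shRNA-SOX2. The targeted gene SOX2 had 16 tags in shRNA-Con against 23 in the library labelled shRNA-SOX2, giving a ratio of 1.58 with a 95% interval from 0.80 to 3.2 (adjusted p = 0.333, Fisher's exact test). A lower SOX2 level was therefore not seen in the library labelled shRNA-SOX2, and that wording is kept throughout. The epithelial keratins KRT8 (7702 and 12729 tags in shRNA-Con and the library labelled shRNA-SOX2) and KRT18 (10318 and 7887 tags) were abundant, KRT7 had 3899 and 1606 tags and KRT19 35 and 127. CDH1 had 50 tags in each library, EPCAM 8 and 4. Of the lung markers, ABCA3 had 56 and 45 tags and SFTPD 0 and 3, while SFTPA1, SFTPB, SFTPC, NKX2-1 and SCGB1A1 were not analysed here. Markers of other cell types together had 47.3 and 47.8 CPM (tags per-million gene tags) over 5 genes. Most of their tags came from the fibroblast and smooth muscle genes COL1A1 (44 and 43 tags) and ACTA2 (49 and 45), near the counts of CDH1. The leukocyte gene CD14 had 11 and 10 tags and PTPRC 2 and 2, and the endothelial gene PECAM1 had 3 and 0.

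Growth factor receptors act through RAS to switch on the kinases RAF, MEK and ERK in turn. Active ERK enters the nucleus and, through factors such as SRF with its ETS-family partners, starts transcription of immediate early genes within minutes and without new protein synthesis. Some of these encode transcription factors, such as EGR1 and FOS, and others encode brakes. Dual-specificity MAP kinase phosphatases (DUSP genes) remove the activating phosphates from ERK and its relatives, and Sprouty proteins act nearer the receptor. Levels of these transcripts are widely used as a readout of ERK output in tumours. Most of them are unstable, so that they follow the signal closely.

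Of the 10 genes, 5 were called lower in the library labelled shRNA-SOX2 at a false discovery rate (FDR) of 0.001, namely DUSP1, DUSP4, DUSP5, IER3 and PHLDA1, and 1 was called higher, EGR3. The other 4, DUSP6, SPRY2, SPRY4 and EGR1, were not called. Over all 13137 genes, 12.2% were called lower and 9.53% higher. Lower calls made up 56.1% of all calls, 49.4% with TMM factors as the scale and 66.6% with the clean tags of each library. In RNA from whole cultures, fewer cells that express a gene and less RNA per cell cannot be told apart. Calls depend on depth: the 5 genes called lower are among the 7 of the 10 that had at least 100 tags, and among all genes with at least 100 tags 22.5% were called lower. At least a 2-fold difference was seen in 1 gene downwards (DUSP5) and 1 upwards (EGR3), against 13.0% and 10.4% of the 10045 genes with at least 20 tags. The median log2 fold change of the 10 genes was -0.46, and that of the 10045 genes was -0.10, with the middle 50% of genes from -0.62 to 0.44. The 10 genes together had 3604 tags in shRNA-Con against 2221 in the library labelled shRNA-SOX2, giving a ratio of 0.678 (95% interval 0.643 to 0.715), and without DUSP5, a choice made after its value was seen, the ratio was 0.739 and the median -0.37. With an assumed spread between cultures (a biological coefficient of variation of 0.2 in edgeR's exact test), DUSP5 was still called (adjusted p = 1.85e-05) and the other 5 calls were lost.

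**Figure D1:**
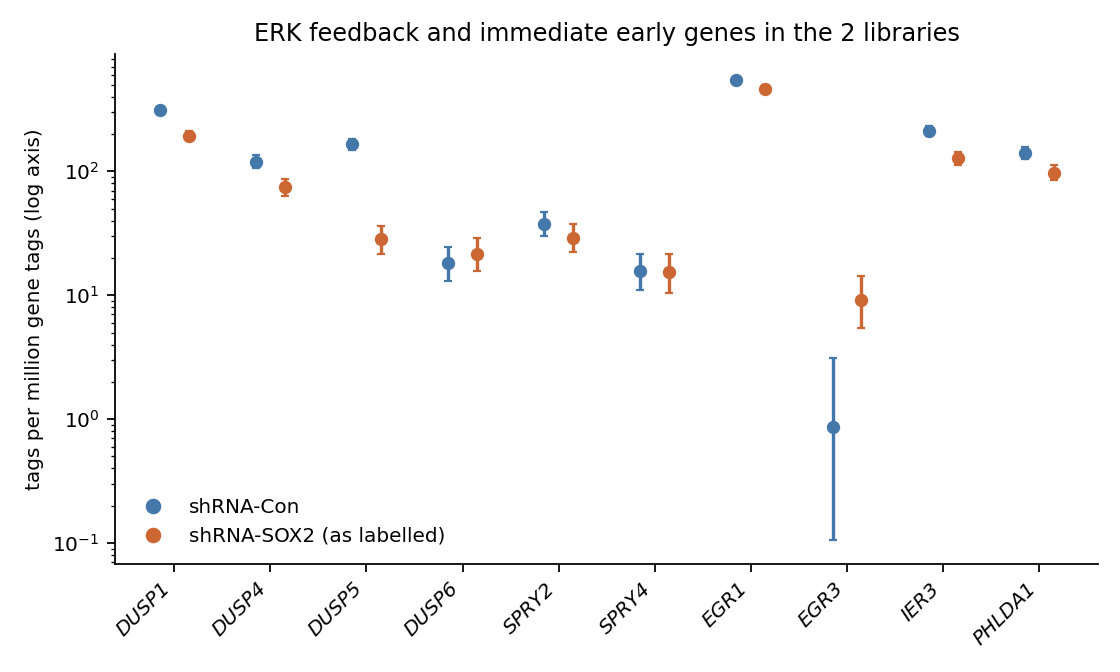
Level in CPM (tags per-million gene tags, log axis) of each of the 10 genes in shRNA-Con (blue) and in the library labelled shRNA-SOX2 (orange), with exact 95% Poisson intervals of the counts. The intervals lie apart for DUSP1, DUSP4, DUSP5, EGR1, EGR3, IER3 and PHLDA1, and overlap for DUSP6, SPRY2 and SPRY4. Levels of different genes are not per length and are not compared.

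**Figure D2:**
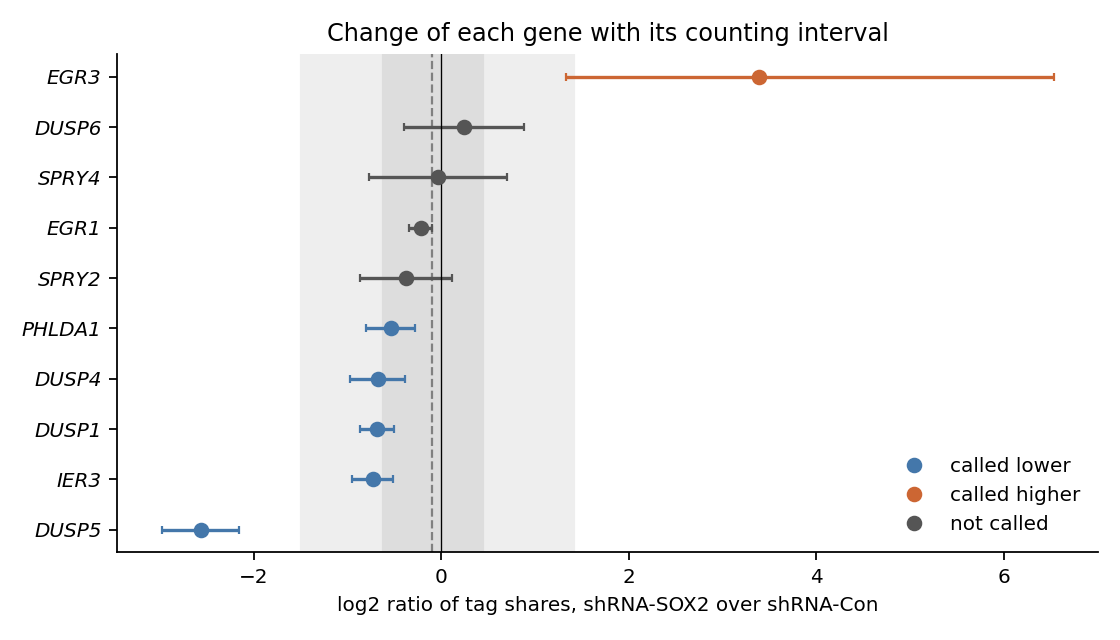
Log2 ratio of tag shares, library labelled shRNA-SOX2 over shRNA-Con, with 95% counting intervals. The dark band holds the middle 50% and the light band the middle 90% of 10045 genes with at least 20 tags, and the dashed line is their median of -0.10. The points of DUSP5 and EGR3 lie outside the light band, and the other 8 inside it. The interval of EGR3 starts at 1.335, inside the upper edge of the band at 1.411. Counts below 3 were set to 3 for the bands and not for the points.

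DUSP1, DUSP4, DUSP5 and DUSP6, the MAP kinase phosphatases, together had 1414 tags in shRNA-Con against 663 in the library labelled shRNA-SOX2, giving a ratio of 0.516 (95% interval 0.470 to 0.566), and without DUSP5 the ratio was 0.645 (0.582 to 0.713), near the 0.637 of IER3 and PHLDA1 together. DUSP5, a nuclear phosphatase that acts on ERK and holds it in the nucleus, had 383 tags (166.2 CPM, 95% interval 150.0 to 183.7) in shRNA-Con against 59 (28.2 CPM, 21.4 to 36.4) in the library labelled shRNA-SOX2. The level was 5.90-fold lower (4.48 to 7.90; log2 fold change -2.56, adjusted p = 7.16e-51, Fisher's exact test). The intervals are far apart, and 0.637% of genes with at least 20 tags had a lower fold change.

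DUSP1, a nuclear phosphatase of ERK, JNK and p38 that is itself an immediate early gene, had 714 tags (309.9 CPM) in shRNA-Con against 403 (192.5 CPM) in the library labelled shRNA-SOX2. The ratio was 0.621 (0.548 to 0.703; log2 fold change -0.69, adjusted p = 1.41e-13, Fisher's exact test). DUSP4, a nuclear phosphatase close to DUSP1 in sequence and substrates, had 275 tags (119.3 CPM) and 156 tags (74.5 CPM), a ratio of 0.624 (0.510 to 0.763; log2 fold change -0.68, adjusted p = 1.41e-05, Fisher's exact test). DUSP1 and DUSP4 differed between the libraries by almost the same factor: 2.60 DUSP1 tags per DUSP4 tag were counted in shRNA-Con against 2.58 in the other. Fold changes lower than these were found for 22.3% and 22.6% of genes, so each lies within the spread of all genes.

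DUSP6, the cytoplasmic phosphatase that is selective for ERK, was not called. It had 42 tags (18.2 CPM) in shRNA-Con against 45 (21.5 CPM) in the library labelled shRNA-SOX2, giving a ratio of 1.18 with an interval from 0.757 to 1.84 (adjusted p = 0.600, Fisher's exact test). The interval does not reach the ratios of DUSP1, DUSP4 or DUSP5, but it overlaps the interval of DUSP4, which runs to 0.763. Ratios between genes of one library do not depend on how the libraries are scaled. DUSP5 had 9.12 tags per DUSP6 tag in shRNA-Con against 1.31 in the other library (adjusted over 45 pairs p = 4.34e-13, Fisher's exact test). For DUSP1 the same ratio was 17.0 and 8.96 (adjusted p = 0.0111) and for DUSP4 6.55 and 3.47 (adjusted p = 0.0155), which miss the FDR of 0.001. DUSP5 also differed from the nuclear DUSP1 (adjusted p = 3.85e-19, Fisher's exact test) and DUSP4 (adjusted p = 2.78e-14, Fisher's exact test). A split between nuclear and cytoplasmic phosphatases is therefore not shown.

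Other dual-specificity phosphatases, within and outside the pathway, were counted beside these. From here on shRNA-Con is given first, and a value in brackets after tags is a log2 fold change. Of 5 further MAP kinase phosphatases none was called, with a median log2 fold change of 0.26 over 3 genes with at least 20 tags. The one with the most tags, DUSP10, a phosphatase of JNK and p38, had 28 and 27 tags. Of 9 atypical dual-specificity phosphatases, which lack the MAP kinase docking domain, 2 were called lower and 2 higher, beside 12.2% and 9.53% of all genes. Their median was 0.25 over 7 genes. DUSP11, an RNA phosphatase, fell from 136 to 58 tags (log2 fold change -1.09), and DUSP12 from 326 to 194 (-0.61). DUSP3 rose from 211 to 292 tags (0.61) and DUSP14 from 216 to 286 (0.54), a call lost with clean tags as the scale. Lower calls were thus made for DUSP1, DUSP4 and DUSP5 and for DUSP11 and DUSP12, and for no other of these phosphatases.

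Neither Sprouty gene was called. SPRY2, an inhibitor of receptor signalling upstream of RAF, had 87 tags (37.8 CPM) in shRNA-Con against 61 (29.1 CPM) in the library labelled shRNA-SOX2, giving a ratio of 0.772 with an interval from 0.547 to 1.08 (adjusted p = 0.249, Fisher's exact test). SPRY4 had 36 tags (15.6 CPM) and 32 tags (15.3 CPM), a ratio of 0.978 (0.588 to 1.62; adjusted p = 1, Fisher's exact test). At these depths a drop as large as that of DUSP1 lies inside both intervals, so its absence is not shown. Of 4 further Sprouty and SPRED genes none was called, with 77 and 64 tags for SPRED2.

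The EGR transcription factors, zinc finger proteins that bind GC-rich promoters, moved in unlike ways. EGR1, an immediate early gene, had 1251 tags (542.9 CPM) in shRNA-Con against 975 (465.7 CPM) in the library labelled shRNA-SOX2. Its ratio was 0.858 (0.788 to 0.933, log2 fold change -0.22, adjusted p = 0.00147, Fisher's exact test). This just misses the FDR of 0.001 although the intervals lie apart, and it passes with clean tags as the scale (adjusted p = 4.55e-07, Fisher's exact test) but not with TMM factors (0.0449) or the median ratio (0.0406). EGR3 was counted in few tags, 2 in shRNA-Con (0.868 CPM, 95% interval 0.105 to 3.13) and 19 in the library labelled shRNA-SOX2 (9.07 CPM, 5.46 to 14.2). The ratio was 10.5, with an interval from 2.52 to 92.6 (adjusted p = 0.000373, Fisher's exact test). EGR3 is the only one of the 10 genes called higher, and its size is poorly fixed. There were 625.5 EGR1 tags per EGR3 tag in shRNA-Con against 51.3 in the other (adjusted over 45 pairs p = 5.30e-05, Fisher's exact test).

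IER3 and PHLDA1, a regulator of cell survival and a pleckstrin homology domain protein, were both lower. IER3 had 488 tags (211.8 CPM) in shRNA-Con against 267 (127.5 CPM) in the library labelled shRNA-SOX2, giving a ratio of 0.602 (0.517 to 0.700; log2 fold change -0.73, adjusted p = 1.61e-10, Fisher's exact test). PHLDA1 had 326 tags (141.5 CPM) and 204 tags (97.4 CPM), a ratio of 0.689 (0.575 to 0.823; log2 fold change -0.54, adjusted p = 0.000158, Fisher's exact test). The ratio of either gene to DUSP1 did not pass in the comparison of pairs (adjusted p = 0.804 for IER3 and 0.441 for PHLDA1, Fisher's exact test). The PHLDA1 call was lost when the libraries were scaled by TMM factors (adjusted p = 0.00134, Fisher's exact test).

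**Figure D3:**
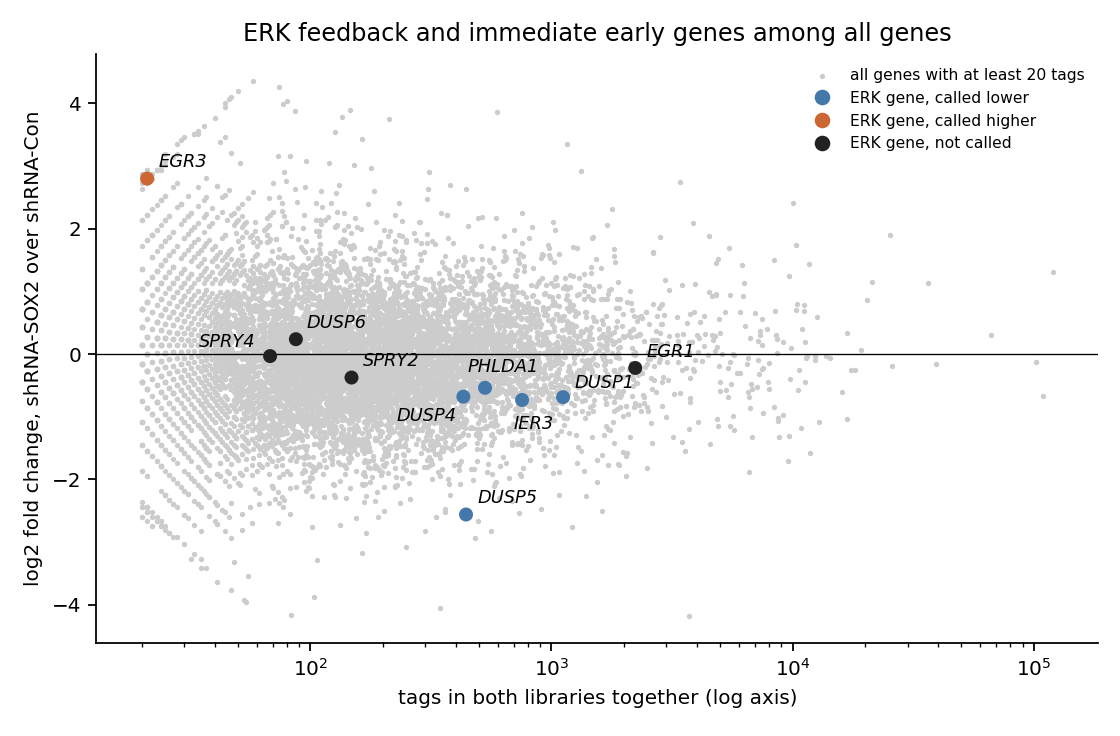
Log2 fold change against tags in both libraries together (log axis) for 10045 genes with at least 20 tags (grey) and the 10 ERK genes (blue called lower, orange called higher, black not called), with counts below 3 set to 3. DUSP5, at -2.56, lies at the lower edge of the genes of its depth, and DUSP1, DUSP4, IER3 and PHLDA1, from -0.73 to -0.54, lie within the cloud.

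In the order of their fold changes the genes ran DUSP5, IER3, DUSP1, DUSP4, PHLDA1, SPRY2, EGR1, SPRY4, DUSP6 and EGR3. Of the 9 neighbouring pairs in this order, only DUSP5 and IER3 differed at an FDR of 0.001 (adjusted p = 1.94e-16, Fisher's exact test). DUSP6 and EGR3 gave an adjusted p of 0.00247 by Fisher's exact test, and the other 7 neighbours gave 0.596 to 1. The order was taken from the same counts, which places genes of like change side by side. The values of neighbours are therefore a description and do not test a grouping. Over all 45 pairs, 18 passed, among them the 9 pairs that hold DUSP5 and 8 of those that hold EGR3. Of the 28 pairs with neither gene, 2 passed, and both hold EGR1. There were 0.571 DUSP1 tags per EGR1 tag in shRNA-Con against 0.413 in the library labelled shRNA-SOX2 (adjusted p = 5.50e-05, Fisher's exact test), and 2.56 and 3.65 EGR1 tags per IER3 tag (adjusted p = 0.000129, Fisher's exact test). In the library labelled shRNA-SOX2, EGR1 was thus higher relative to DUSP1 and to IER3, which does not depend on the scaling.

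**Figure D4:**
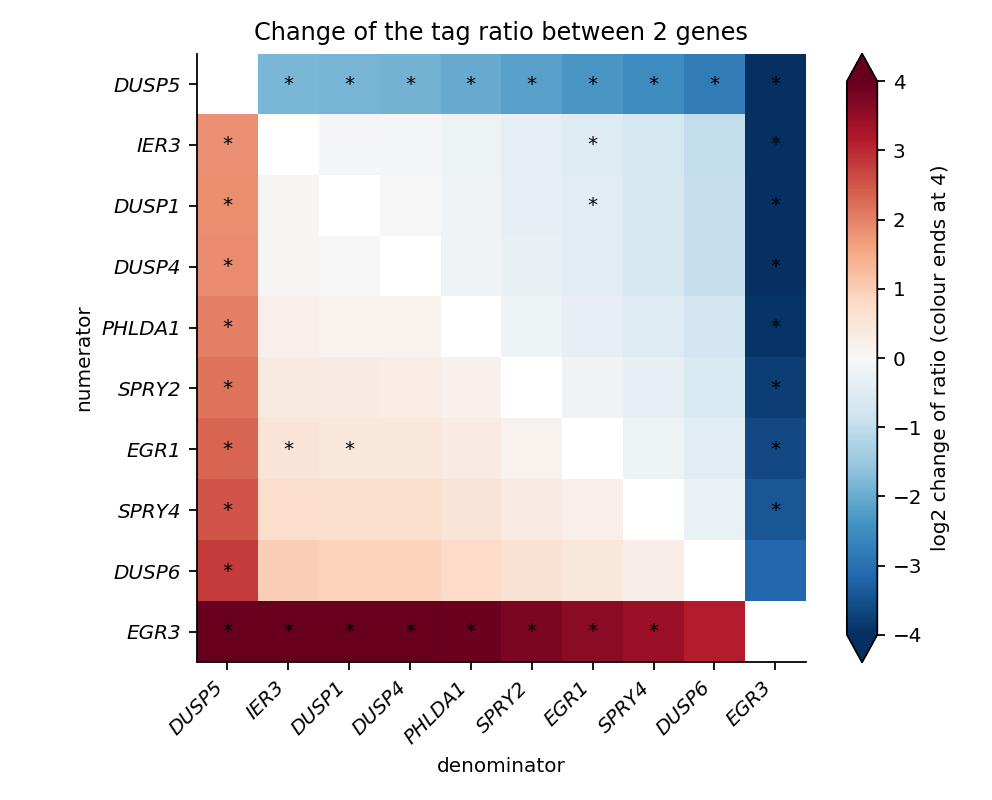
Log2 change, library labelled shRNA-SOX2 against shRNA-Con, of the tag ratio of the row gene to the column gene (blue lower, red higher, the colour ends at 4), with the genes in order of fold change. Asterisks mark the 18 of 45 pairs past an FDR of 0.001 (each pair appears on both sides of the diagonal), of which 9 hold DUSP5 and 8 hold EGR3.

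To set the promoters of these genes side by side, the 250 bases before annotated starts were read from the RefSeq promoter table (assembly GRCh38.p14). It matched 6 of the genes in 8 windows. No window was read for DUSP4, DUSP5, EGR3 and IER3, so of the called genes only DUSP1 and PHLDA1 had one. The windows of EGR1, DUSP1, PHLDA1 and DUSP6 are shown because EGR1 and DUSP6 were not called and DUSP1 and PHLDA1 were called lower. They lie at chr5:138465229-138465478 (EGR1, plus strand), chr5:172771196-172771445 (DUSP1, minus strand), chr12:76031777-76032026 (PHLDA1, minus strand) and chr12:89352502-89352751 (DUSP6, minus strand), each directly upstream of the start and written 5′ to 3′ on the strand of the gene. Capitals mark matches on either strand to the CArG box (the site of SRF), the full cyclic AMP response element TGACGTCA, the AP-1 site TGANTCA and CCGGAA, a strict form of the ETS site. The shorter ETS letters GGAA were not searched, so a window without CCGGAA may still hold an ETS site.
EGR1: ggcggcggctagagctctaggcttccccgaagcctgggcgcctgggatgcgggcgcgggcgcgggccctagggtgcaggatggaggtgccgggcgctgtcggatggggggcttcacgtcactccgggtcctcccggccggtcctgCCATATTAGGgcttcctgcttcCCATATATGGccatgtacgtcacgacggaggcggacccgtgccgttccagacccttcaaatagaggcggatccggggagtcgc
DUSP1: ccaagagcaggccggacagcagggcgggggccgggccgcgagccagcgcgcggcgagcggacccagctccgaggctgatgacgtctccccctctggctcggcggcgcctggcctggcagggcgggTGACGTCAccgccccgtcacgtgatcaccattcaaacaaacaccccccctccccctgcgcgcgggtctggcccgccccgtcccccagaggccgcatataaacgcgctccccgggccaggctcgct
PHLDA1: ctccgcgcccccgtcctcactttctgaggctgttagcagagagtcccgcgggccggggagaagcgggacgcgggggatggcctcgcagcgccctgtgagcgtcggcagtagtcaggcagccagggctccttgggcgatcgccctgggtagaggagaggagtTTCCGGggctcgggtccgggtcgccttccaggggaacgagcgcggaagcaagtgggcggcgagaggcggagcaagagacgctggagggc
DUSP6: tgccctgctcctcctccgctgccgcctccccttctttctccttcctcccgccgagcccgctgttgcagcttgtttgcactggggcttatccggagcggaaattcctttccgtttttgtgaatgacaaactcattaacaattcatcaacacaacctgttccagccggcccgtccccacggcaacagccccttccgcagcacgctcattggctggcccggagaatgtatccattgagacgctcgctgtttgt
Positions count back from the start, with -1 the base before it. The EGR1 window holds 2 CArG boxes, at -105 and -83, and 1.16% of all 35116 windows of the table hold any. The DUSP1 window holds a full cyclic AMP response element at -125, found in 1.65% of windows, and a TATAAA at -30, found in 10.7%. The PHLDA1 window holds CCGGAA on the minus strand at -89, found in 14.5% of windows. The DUSP6 window holds none of these, and none of TGACG (21.2% of windows, and part of the full element), GCGTGGG, an EGR site (6.19%), or GGGCGG, an SP1 site (42.6%). Of the 3 windows of SPRY2, the one at chr13:80341127-80341376 (minus strand) holds CCGGAA at -142, TGACG at -190 and GGGCGG at -102 and, on the minus strand, -42. The SPRY4 window holds TGACG at -68 and GGGCGG at -183. TGACG was also found in the EGR1 window, at -135 and -66 on the minus strand, and in that of DUSP1, and GGGCGG in those of DUSP1 and PHLDA1 (-36). The matched letters are a description of these windows, and binding was not measured.

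Of 27 genes of the ERK cascade, from adaptor proteins to the kinases that ERK activates, 3 were called lower and 3 higher, shares near the 12.2% and 9.53% of all genes, and the median log2 fold change over 24 genes was -0.08. With clean tags as the scale, 5 were called lower and 1 higher, without SHC1 and RRAS. MAPK3, an ERK kinase, had 43 and 22 tags (log2 fold change -0.83, adjusted p = 0.0818, Fisher's exact test). Of the RAF kinases, ARAF had 278 and 239 tags and BRAF 0 and 2. Of the MEK kinases, MAP2K2 had 465 and 427 tags, and MAP2K1 fell from 131 to 67 (log2 fold change -0.83, adjusted p = 0.000547, Fisher's exact test), a call lost with TMM factors. The exchange factor SOS2 fell from 84 to 28 tags (-1.45) and the phosphatase PTPN11, which promotes RAS activation, from 508 to 302 (-0.61). The adaptor SHC1 rose from 286 to 370 tags (0.51), the scaffold LAMTOR3 from 153 to 232 (0.74) and the RAS relative RRAS from 86 to 134 (0.78).

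Of 17 brakes outside the DUSP and Sprouty families, 5 were called lower and 2 higher, beside 12.2% and 9.53% of all genes and 22.5% lower among those with at least 100 tags, with a median log2 fold change of -0.45 over 14 genes. PTPN2, a tyrosine phosphatase, fell from 128 to 41 tags (-1.50), UBASH3B (also named STS1), which holds back receptor signalling, from 233 to 82 (-1.37), RASA1, a RAS GTPase-activating protein, from 148 to 64 (-1.07), and the phosphatase PTPN12 from 767 to 350 (-0.99). ERRFI1, an ERK-induced inhibitor of the EGF receptor, rose from 267 to 388 tags (0.68), and the RAS GTPase-activating protein NF1 from 241 to 321 (0.55). With clean tags as the scale, 6 were called lower and 1 higher, without NF1.

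Of 43 other immediate early genes, 13 were called lower and 3 higher, beside 12.2% and 9.53% of all genes and 22.5% lower among those with at least 100 tags, and the median log2 fold change was -0.29 over 38 genes. KLF4 fell from 81 to 18 tags (-2.03), MYC from 542 to 125 (-1.98), PPP1R15A, which restarts translation after stress, from 271 to 84 (-1.55), and FOSL1, an AP-1 subunit that responds to sustained ERK activity, from 115 to 36 (-1.54). In the other direction, RGS2, a regulator of G protein signalling, rose from 24 to 85 tags (1.96), BTG2, an antiproliferative gene, from 32 to 104 (1.84), and FOS from 786 to 1274 (0.83, adjusted p = 1.21e-36, Fisher's exact test). EGR1, which shares SRF as a regulator with FOS, had a log2 fold change of -0.22 and was not called. The counts of the list were 10 lower and 6 higher with TMM factors, and 17 and 3 with clean tags. JUN, the partner of FOS in AP-1, was looked up after its value was seen and fell from 697 to 225 tags (-1.49).

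Among other output genes of the pathway, the genes called lower included ligands of its receptors. Of 12 such genes outside the 10, 4 were called lower and 2 higher, with a median log2 fold change of -0.42. The shares were the same 12.2% and 9.53% over all genes, and 22.5% and 16.6% among those with at least 100 tags. The EGF receptor ligands AREG and EREG fell from 368 to 94 tags (-1.83) and from 526 to 215 tags (-1.15), and the receptor EPHA2 from 311 to 175 (-0.69). FOSL1 is the fourth. A further EGF receptor ligand of the list, HBEGF, was looked up after its value was seen and ran the other way. It had 5 and 16 tags and was not called (adjusted p = 0.0395, Fisher's exact test). PHLDA3, a relative of PHLDA1 that p53 induces, rose from 477 to 700 tags (0.69). The other gene called higher, EPHA4, was named after its values were seen and had 0 and 46 tags. CCND1, the cyclin of early G1 and the gene with the most tags of the list, had 894 and 913 (0.17). Of 18 transcription factors that act downstream of ERK, 3 were called lower and none higher by Fisher's exact test, beside 12.2% and 9.53% of all genes, with a median of -0.51 over 16 genes: ETS1 fell from 61 to 12 tags (-2.21), CREB1 from 140 to 41 (-1.63) and ETS2 from 181 to 98 (-0.75). With an assumed coefficient of variation of 0.2, EPHA4 was the only gene of the lists described here, beside DUSP5, that was still called.

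**Figure D5:**
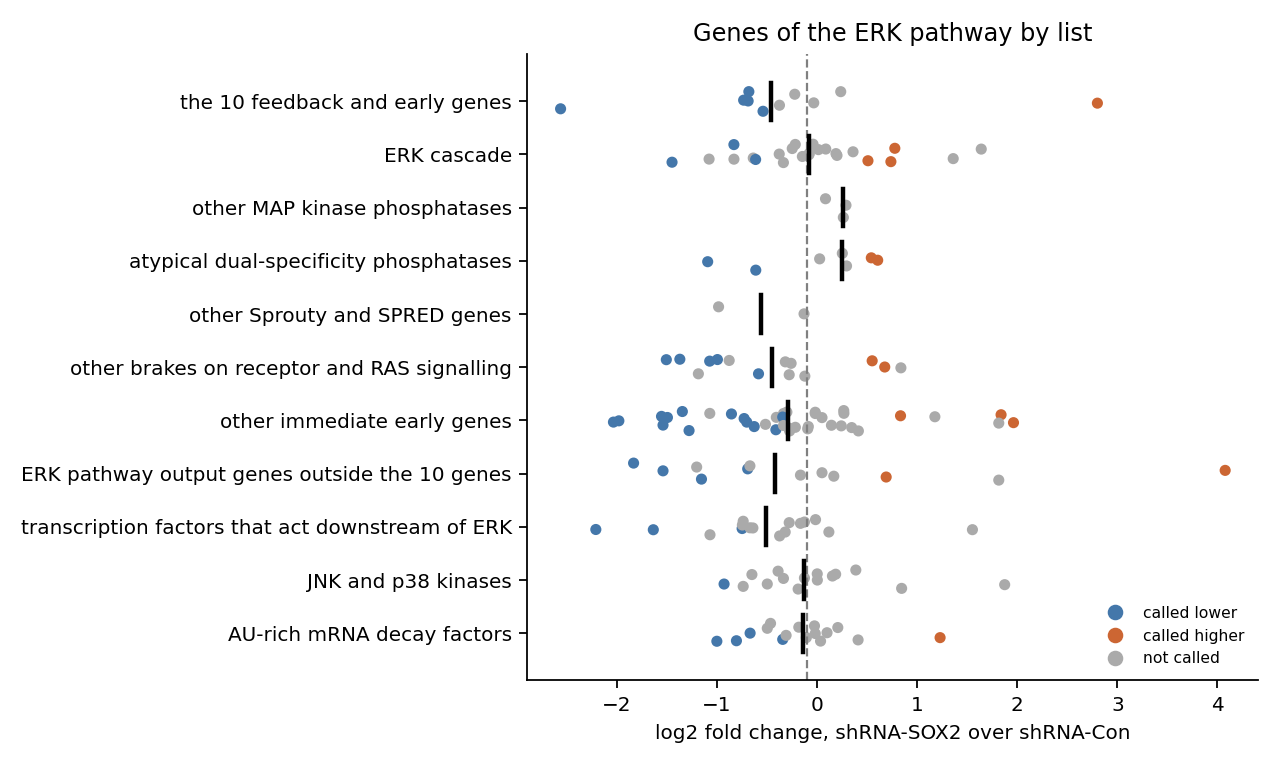
Log2 fold change, library labelled shRNA-SOX2 over shRNA-Con, of genes with at least 20 tags in each list (points; blue called lower, orange called higher, grey not called), with the list median as a black bar and the median of all genes, -0.10, as a dashed line. The medians run from -0.56 for other Sprouty and SPRED genes (2 genes) to 0.26 for other MAP kinase phosphatases (3 genes), and that of the 10 genes is -0.46.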

How the data were processed

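The authors had oligo(dT)-selected mRNA read as digital gene expression tags at the Beijing Genomics Institute and deposited a raw tag count per Entrez gene for each library. The TPM values that the authors deposited are tags per-million clean tags, and served here only to recover the clean tags of each library (3516267 for shRNA-Con and 3456233 for the library labelled shRNA-SOX2, of which 65.5% and 60.6% lie on genes). The submitters' processing notes list hg19, and the aligner, counter and annotation are not given in the sources used here. Deposited columns with the authors' comparison (log2 ratio, p-value and FDR) were not used. The fewest tags of a listed gene above 0 were 2. A tag that several near-identical genes share cannot be assigned by these counts.

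From the counts, log2 fold changes were taken over gene tags, with counts below 3 set to 3. Each gene's tags and all other gene tags formed a table of the 2 libraries for Fisher's exact test (two-sided), and p-values were adjusted by Benjamini-Hochberg over 13137 genes at an FDR of 0.001, the threshold of the methods. Pairs of genes were compared by Fisher's exact test on their counts. Ratios have 95% intervals by the Clopper-Pearson method and levels by the exact Poisson method, which hold counting error and nothing else. Medians and 2-fold counts use genes with at least 20 tags in both libraries together. The 10 genes and the other lists were chosen with earlier results of these data known. Named from each other list were the called genes with more than 3 tags in both libraries, at most 4 per direction by size, the gene with the most tags, and kinases of the RAF, MEK and ERK families. Some genes that this rule names are not reported here. Of the Entrez IDs, 13086 were found in the RefSeq table, and 19 rows without a symbol held 0.0535% of the shRNA-Con gene tags and 0.0372% of those of the library labelled shRNA-SOX2. Alternatives were TMM (edgeR 4.0.16, R 4.3.3), median ratio (DESeq2 1.42.0) and clean tag scaling, other minimum counts, an FDR of 0.05, and edgeR's exact test with an assumed coefficient of variation of 0.1, 0.2 or 0.4. Python 3.11.15 with scipy 1.17.1 was used, and the steps were tested on simulated counts. The simulation held counting error and no spread between cultures, so it checks the steps and not the calls.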

Additional observations from a re-analysis of the deposited data

How the results depend on the processing

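No paired analysis was possible because there is only 1 library of each kind, and none could be left out. With an assumed coefficient of variation of 0.1, 0.2 or 0.4 in edgeR's exact test, 1, 1 and 0 of the 10 genes were called lower (DUSP5 in the first 2) and 0, 0 and 0 higher. At 0.4, where no call was made, 2 of the 10 had an unadjusted p under 0.05 by edgeR's exact test. The share of all genes under that threshold was not counted, so nothing is drawn from this number. Over all genes these assumptions left 654, 48 and 0 calls lower and 512, 65 and 0 higher. The median of the 10 genes was -0.57 with clean tags as the scale and -0.68 with a minimum of 100 tags, which leaves 7 of them. SPRY4, not called, turned sign, to 0.041 with TMM factors and 0.039 with the median ratio. These scalings left 4 of the 10 called lower, without PHLDA1, and clean tags gave 6, with EGR1 (adjusted p = 4.55e-07, Fisher's exact test). Over all genes the calls were 1597 lower and 1252 higher, 1381 and 1414 with TMM factors, 2010 and 1008 with clean tags, and 2754 and 2148 at an FDR of 0.05, where EGR1 was also called. Clean tags moved the median of all genes from -0.10 to -0.22. The cause of these differences was not tested. Depth limits DUSP6, SPRY2, SPRY4 and EGR3, with under 150 tags each.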

Other observations

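Kinases of the parallel JNK and p38 pathways, which also induce early genes, gave 1 lower call among 17 genes. Over all genes, 12.2% were called lower and 9.53% higher. The median log2 fold change of these kinases was -0.12 over 15 genes. ZAK, a kinase that responds to ribosome stalling, fell from 203 to 97 tags (-0.93), and MAPKAPK2, a kinase under p38 that stabilises AU-rich transcripts, had 158 and 144 tags. Of 16 factors that govern the decay of AU-rich mRNA, the class to which many early transcripts belong, 4 were called lower and 1 higher. The shares were 12.2% and 9.53% over all genes, and 22.5% and 16.6% among those with at least 100 tags. The median of the list was -0.14. KHSRP, which promotes decay, rose from 159 to 339 tags (1.23, adjusted p = 9.68e-19, Fisher's exact test). DCP1A, a decapping protein, fell from 88 to 40 tags, CNOT1, the scaffold of the deadenylase complex, from 219 to 114 (-0.80), ELAVL1, which stabilises such mRNA, from 187 to 107 (-0.67), and ZFP36L1, which promotes their decay, from 615 to 441 (-0.34). With TMM factors, 1 of these 4 lower calls, CNOT1, was kept. HNRNPD, with the most tags of the list, had 771 and 618 (-0.18).

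By the deposited gene annotation, looked up after the values were seen, 6 of the 10 genes are placed in the nucleus, where 14.4% of 3864 genes were called lower, and 4 in the cytoplasm, where 16.2% of 3358 genes were. PHLDA1 is in both. Of 11 genes annotated with the activity of a MAP kinase tyrosine/serine/threonine phosphatase, 3 were called lower and 1 higher, beside 12.2% and 9.53% of all genes. Their median log2 fold change was 0.16 over 8 genes.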
